A study of Mus musculus with 6 samples.

Results

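A set of 8 genes of the endocannabinoid system was followed in *Kiss1* cells of the medial amygdala (MeA) of female mice. They were chosen by symbol from the deposited log2 CPM table (CPM are read counts scaled to the library size), and 8 of the 8 symbols were found among its 13886 genes. They are the receptor gene *Cnr1*, the synthetic enzyme genes *Dagla*, *Daglb* and *Napepld*, and the hydrolase genes *Mgll*, *Abhd6*, *Abhd12* and *Faah*. The RNA was bound to HA-tagged ribosomes that were pulled down from MeA micro-punches of Kiss1Cre+/Rpl22HA+/+ females, in which the Cre driven by *Kiss1* tags the ribosomes. Every mouse, controls included, was an adult whose ovaries were removed at 8 weeks, after which it carried an estradiol (E2) capsule for 4 days, to raise Cre expression, and then had 7 days without it. The OVX group received nothing more, and the E2 group received a second capsule, for 5 days. Each group has 3 libraries, and each library is 1 pool of 4 brains. No library without Cre and no whole-punch input is among these 6, so enrichment over the rest of the MeA cannot be given.

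Endocannabinoids are lipid messengers that neurons make on demand from membrane lipids. The main ones are 2-arachidonoylglycerol (2-AG) and anandamide, an N-acylethanolamine. In many forebrain circuits 2-AG is made in the postsynaptic cell and travels backwards across the synapse to the CB1 receptor, a Gi/o-coupled receptor that lowers transmitter release. The messengers are removed by serine hydrolases, so the supply depends on the balance of synthesis and breakdown. In the cortex and in parts of the amygdala, CB1 is known to be especially abundant in cholecystokinin interneurons.

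The libraries had scaled sizes of 28.1 to 34.2 M reads, rebuilt from the lowest value in each. The treatment was visible in *Kiss1* itself. Its gene model ENSMUSG00000115958 stood at a log2 CPM of 2.29, 1.82 and 1.13 in OVX and 3.72, 3.80 and 3.45 in E2, a difference of 1.91 (SE 0.26, limma adjusted p = 0.00475). A second *Kiss1* model, ENSMUSG00000116158, was at -5.82 (the lowest value in that library), -0.65 and 0.10 in OVX and at 2.97, 3.18 and 2.65 in E2 (limma adjusted p = 0.0942). Transcripts of other cell types were present. The mean log2 CPM over 6 astrocyte markers was 6.84 to 7.36 across libraries, over 6 oligodendrocyte markers 6.98 to 7.66, over 6 microglia markers 3.64 to 4.04 and over 5 endothelial markers 3.66 to 4.67, with overlapping ranges in OVX and E2. The 3 GABA neuron markers, *Gad1*, *Gad2* and *Slc32a1*, had a mean of 6.88 to 7.14 in OVX and 7.10 to 7.38 in E2. None of the markers in these 5 lists passed the threshold, an adjusted p under 0.05. Means were higher in E2 for 6 of 6 astrocyte, 5 of 6 oligodendrocyte, 3 of 6 microglia, 5 of 5 endothelial and 3 of 3 GABA markers. An unadjusted p under 0.05 was found for 1 astrocyte, 1 oligodendrocyte and 1 GABA marker, the last being *Gad2* (difference 0.31, limma adjusted p = 0.251, without overlap). *Slc17a6*, a vesicular glutamate transporter gene, was also higher in each E2 library (difference 0.40, SE 0.09, limma adjusted p = 0.117). Of all 13886 genes, 7089 had a higher mean in E2, 8.56% had an unadjusted p under 0.05 (limma) and 13.7% had groups that did not overlap. The part of these cell types in the differences below was not tested. In such pooled RNA, a change in the number of cells of a type and a change in RNA per cell cannot be told apart.

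None of the 8 genes differed between E2 and OVX at an adjusted p under 0.05 (limma on log2 CPM, 0 of 8), and 1 of 8, *Napepld*, had an unadjusted p under 0.05. Over all 13886 genes the same fit called 40 genes, 0.288% of those tested, and 8.56% had an unadjusted p under 0.05. In E2, 5 of the 8 genes had a lower mean than in OVX and 3 had a higher one. The median difference of the 8 was -0.04 on the log2 scale, against 0.00 for all genes, and their median size of difference, 0.09, was the same as that of all genes. In 4 of the 8 genes the OVX and E2 libraries did not overlap, with E2 lower in *Cnr1*, *Dagla* and *Napepld* and higher in *Abhd12*. Over all genes, 13.7% did not overlap in either direction and 6.82% had every E2 library below every OVX library. These counts over 8 genes are a description and were given no test.

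**Figure D1:**
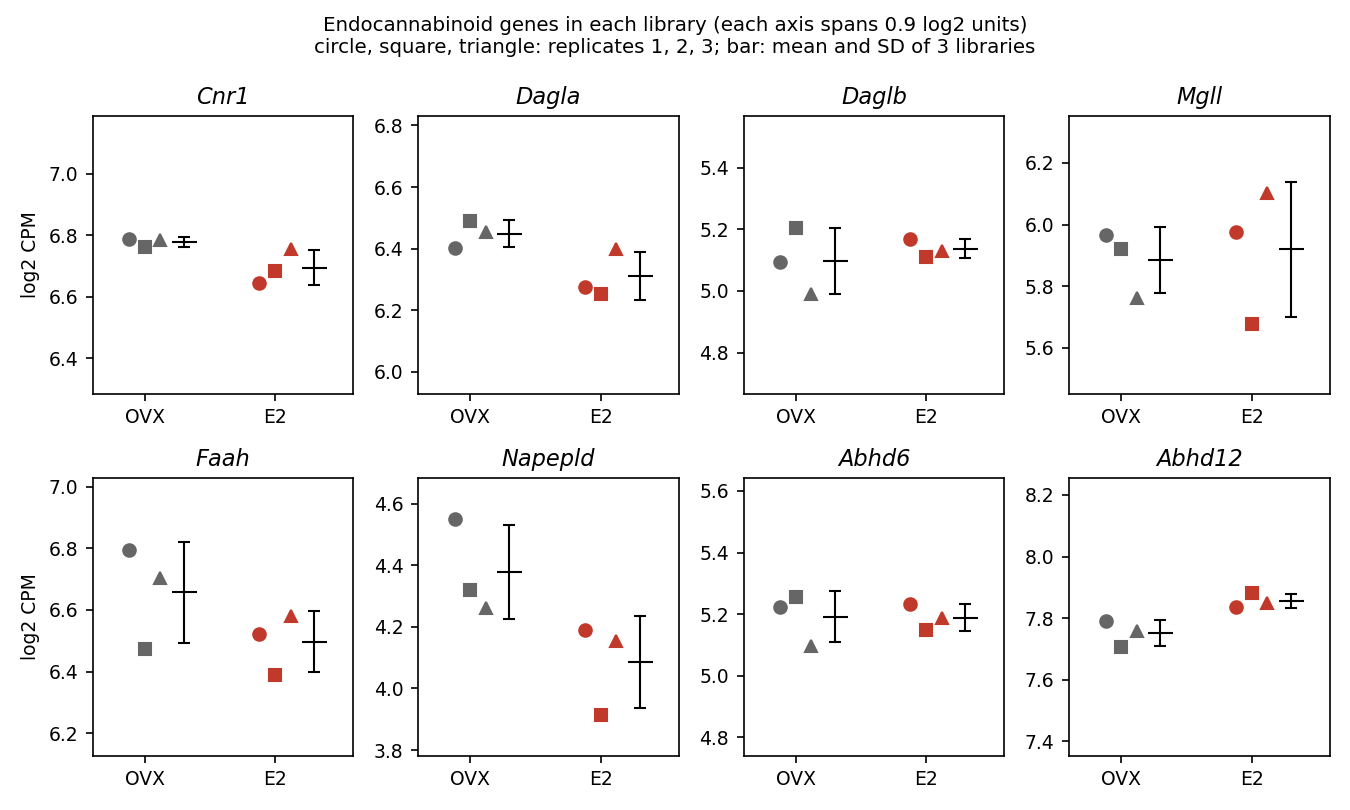
Log2 CPM of the 8 genes in each of the 6 libraries (grey, OVX; red, E2; circle, square and triangle for replicates 1, 2 and 3), with the mean and SD of the 3 libraries of a group beside the points. The groups are separate in *Cnr1*, *Dagla*, *Napepld* and *Abhd12*, by small gaps, and overlap in the other 4 genes.

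*Cnr1* encodes the CB1 receptor (ENSMUSG00000044288; chromosome 4 from 33924593 to 33948831, plus strand, GRCm38). Its log2 CPM was 6.79, 6.76 and 6.79 in OVX replicates 1, 2 and 3 and 6.64, 6.68 and 6.76 in E2 replicates 1, 2 and 3. The lowest OVX and the highest E2 library were nearly level, and E2 replicate 1 was the lowest of all. In linear units this was 110 ± 1.15 CPM (SD, n = 3) in the OVX libraries against 104 ± 4.09 CPM (SD, n = 3) in E2. The difference on the log2 scale was -0.08 (SE 0.06, limma adjusted p = 0.771), with a 95% interval of the change from -13.7% to 3.08%.

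*Dagla* and *Daglb* encode the diacylglycerol lipases DAGLα and DAGLβ, which form 2-AG. DAGLα is the form that serves most retrograde signalling in the brain, and DAGLβ is prominent in microglia and macrophages. *Dagla* (ENSMUSG00000035735; chromosome 19 from 10245265 to 10304877, minus strand) stood at a log2 CPM of 6.40, 6.49 and 6.45 in OVX and 6.28, 6.25 and 6.40 in E2. E2 replicate 3 came within rounding of OVX replicate 1, and the other E2 libraries were further below. The difference was -0.14 (SE 0.07, limma adjusted p = 0.600), with an interval from -17.7% to 0.223%. *Daglb* (ENSMUSG00000039206; chromosome 5 from 143464584 to 143505942, plus strand) had values of 5.10, 5.21 and 4.99 in OVX and 5.17, 5.11 and 5.13 in E2. All 3 E2 values lay inside the OVX range, and the difference was 0.04 (SE 0.09, limma adjusted p = 0.946), with an interval from -9.54% to 17.0%. The annotated exons of *Daglb* share 2309 bases with those of *Rac1* on the opposite strand. The libraries do not keep strand, so reads in that stretch cannot be assigned by position alone, and *Rac1* was the more abundant gene (5.98 against 2.83 as log2 of CPM per kilobase of transcript). Without OVX replicate 3 the difference of *Daglb* was -0.0126.

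*Mgll*, *Abhd6* and *Abhd12* encode hydrolases of 2-AG. Monoacylglycerol lipase, the product of *Mgll*, carries out most 2-AG breakdown in the brain and acts largely in presynaptic terminals and astrocytes. ABHD6 acts on the postsynaptic side, and ABHD12 is also a major lipase of lysophosphatidylserine. *Mgll* (ENSMUSG00000033174; chromosome 6 from 88724412 to 88828360, plus strand) stood at a log2 CPM of 5.97, 5.92 and 5.76 in OVX and 5.98, 5.68 and 6.10 in E2. The E2 libraries held both the lowest and the highest value of the 6. The difference was 0.04 (SE 0.10, limma adjusted p = 0.965), with an interval from -11.7% to 19.0%, and 167 of the gene's exonic bases are shared with an antisense gene model. The difference was 0.16 without E2 replicate 2, -0.02 without OVX replicate 3 and -0.0562 without E2 replicate 3, so its direction rests on single libraries.

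*Abhd6* (ENSMUSG00000025277; chromosome 14 from 8002902 to 8056763, plus strand) had values of 5.22, 5.26 and 5.10 in OVX and 5.23, 5.15 and 5.19 in E2. It had the smallest difference of the 8 genes, 0.00 on the log2 scale (SE 0.08, limma adjusted p = 0.997), and the interval ran from -11.8% to 12.9%. *Abhd12* (ENSMUSG00000032046; chromosome 2 from 150832493 to 150904741, minus strand) had values of 7.79, 7.71 and 7.76 in OVX and 7.84, 7.88 and 7.85 in E2. Each E2 library was above each OVX library, which no other gene of the 8 showed. The means were 216 ± 6.31 CPM (SD, n = 3) in the OVX libraries against 232 ± 3.64 CPM (SD, n = 3) in E2, a log2 difference of 0.10 (SE 0.05, limma adjusted p = 0.622) with an interval from -0.688% to 16.4%.

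*Napepld* and *Faah* encode enzymes of the N-acylethanolamines. NAPE-PLD releases anandamide and its relatives from their phospholipid precursors, and fatty acid amide hydrolase (FAAH) breaks them down. *Napepld* (ENSMUSG00000044968; chromosome 5 from 21662901 to 21701396, minus strand) stood at a log2 CPM of 4.55, 4.32 and 4.26 in OVX and 4.19, 3.91 and 4.15 in E2. It had the largest difference of the 8 genes, with every E2 library below every OVX library. In linear units it was 20.9 ± 2.26 CPM (SD, n = 3) in the OVX libraries against 17.0 ± 1.72 CPM (SD, n = 3) in E2. The log2 difference was -0.29 (SE 0.12, limma adjusted p = 0.531), with an interval from -32.0% to -1.87% that is not adjusted for the number of genes. With each library left out, the difference of *Napepld* ran from -0.349 to -0.205. It was smallest in size without OVX replicate 1 (-0.205, SE 0.13) and nearly the same without E2 replicate 2 (-0.206, SE 0.13). *Faah* (ENSMUSG00000034171; chromosome 4 from 115967145 to 116017926, minus strand) had values of 6.79, 6.47 and 6.70 in OVX and 6.52, 6.39 and 6.58 in E2. Replicate 2 of OVX was below 2 of the 3 E2 libraries, so the groups overlapped. The log2 difference was -0.16 (SE 0.08, limma adjusted p = 0.644), with an interval from -21.0% to 1.40%. It was -0.0911 without OVX replicate 1, -0.105 without E2 replicate 2 and -0.251 without OVX replicate 2.

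**Figure D2:**
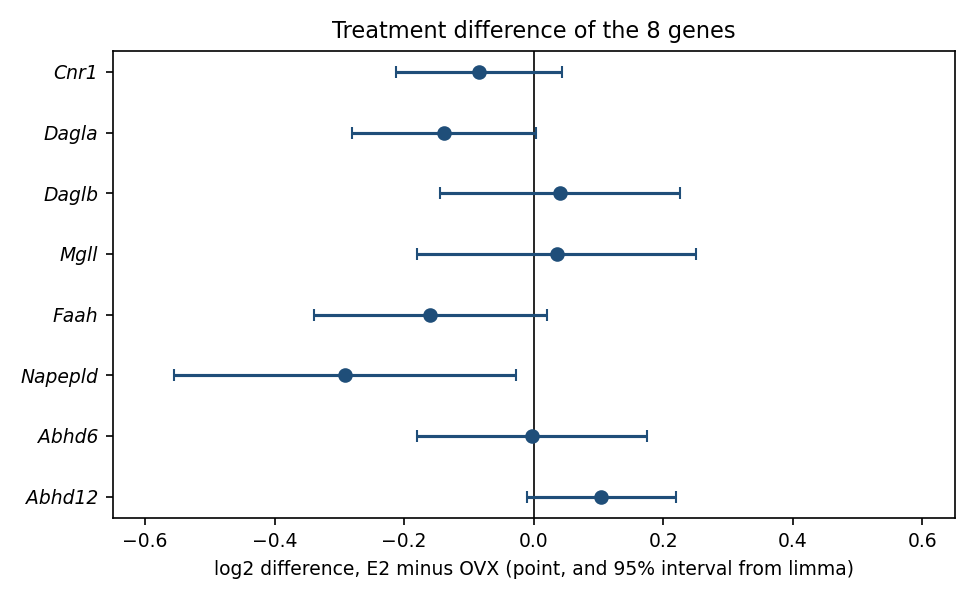
Difference between E2 and OVX for each of the 8 genes on the log2 scale, as the point estimate and the 95% interval of the limma fit, without adjustment for the number of genes. Only the interval of *Napepld*, from -0.56 to -0.03, lies to one side of 0, and the intervals of the other 7 genes lie between -0.34 and 0.25.

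A set of markers of excitatory neurons that are more typical of cortex and hippocampus than of the MeA had lower means in E2, as had *Cnr1*, *Dagla*, *Faah* and *Napepld*. The mean log2 CPM of 6 such markers (*Slc17a7*, *Neurod6* and *Emx1* among them) was 5.18 to 5.66 in OVX and 4.75 to 5.19 in E2. E2 replicate 3 was level with the lowest OVX library. Among these markers *Slc17a7* had the highest level, at a mean log2 CPM of 9.47. The paper names it, as *Vglut1*, among the transcripts found in MeA *Kiss1* cells. Of the 6 markers, 6 had a lower mean in E2 and 5 of 6 had an unadjusted p under 0.05, against 8.56% of all genes. An adjusted p under 0.05 was found for 0 of 6 (lowest 0.174, limma). With this marker mean added to the limma fit as a covariate, the log2 difference was -0.03 for *Cnr1* (SE 0.09), -0.05 for *Faah* (SE 0.12), -0.14 for *Napepld* (SE 0.19) and -0.11 for *Dagla* (SE 0.10). Without the covariate these were -0.08, -0.16, -0.29 and -0.14. For the other 4 genes the difference with it was 0.13 for *Abhd12* (SE 0.08), 0.22 for *Mgll* (SE 0.14), 0.06 for *Daglb* (SE 0.13) and 0.03 for *Abhd6* (SE 0.13). Without it these were 0.10, 0.04, 0.04 and -0.003. The covariate itself differs between the groups and raised the SE of the 8 genes, and every adjusted p with it was 0.997. The part of these cells in the differences was not tested. Of the 5 cholecystokinin interneuron markers, which include *Cnr1*, 0 passed the threshold and 1 had a higher mean in E2. Their mean log2 CPM was 4.11 to 4.41 in OVX and 4.01 to 4.42 in E2, and *Cck* had the smallest adjusted p (0.295, limma, higher in E2). *Cck* is also expressed by MeA *Kiss1* neurons, so its level does not mark interneurons here. At a mean log2 CPM of 9.09 it was the highest of the 5 markers, which count equally in that mean. The other 3 markers besides *Cnr1*, *Vip*, *Htr3a* and *Slc17a8*, were at mean log2 CPM values of 2.97, 1.94 and 0.28.

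Levels of different genes were compared per kilobase of the longest annotated transcript, as log2 of CPM per kilobase averaged over the 6 libraries. *Abhd12* was far above the others, at 6.80 ± 0.06 (SD, n = 6) or 112 CPM per kilobase, and 96.7% of the 13881 genes with a transcript length were lower. *Cnr1* followed at 4.20 ± 0.06 (SD, n = 6), *Faah* at 4.11 ± 0.15, *Abhd6* at 4.04 ± 0.06, *Mgll* at 3.90 ± 0.15 and *Dagla* at 3.89 ± 0.09, each as mean and SD of 6 libraries. These 5 genes lay within 14.8 to 18.4 CPM per kilobase, above 67.7% to 73.4% of genes. *Daglb* was lower, at 2.83 ± 0.07 (SD, n = 6) or 7.12 CPM per kilobase, and *Napepld* lowest, at 2.25 ± 0.21 (SD, n = 6) or 4.75 CPM per kilobase, above 47.6% and 37.3% of genes.

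The order held in every library at 3 steps. The receptor gene was 2.61 ± 0.11 (SD, n = 6) below *Abhd12* on the per-kilobase log2 scale. *Dagla* was 1.05 ± 0.13 (SD, n = 6) above *Daglb*, a ratio of 2.08, and *Daglb* was 0.58 ± 0.23 (SD, n = 6) above *Napepld*. Each of these steps was in the same direction in 6 of 6 libraries. The exact sign-flip permutation p was 0.0312 (2-sided, the smallest 6 libraries can give), and the adjusted p over the 7 neighbouring pairs was 0.0729. The order was taken from these same libraries, and a transcript length shifts all 6 alike. The p-values therefore describe how steady a step was at the chosen length and are no test of which gene is higher. Within the middle group, *Cnr1*, *Faah*, *Abhd6*, *Mgll* and *Dagla* overlapped with their neighbours, and the neighbouring pairs gave exact p-values from 0.0625 to 0.844. Length decides part of this order. Per kilobase of all annotated exons together, *Daglb* was at 1.86 and *Napepld* at 2.25, so these exchanged places, and *Faah* (3.61) and *Mgll* (3.56) came after *Abhd6* (3.95) and *Dagla* (3.86). *Abhd12* and *Cnr1* stayed first and second on both scales.

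**Figure D3:**
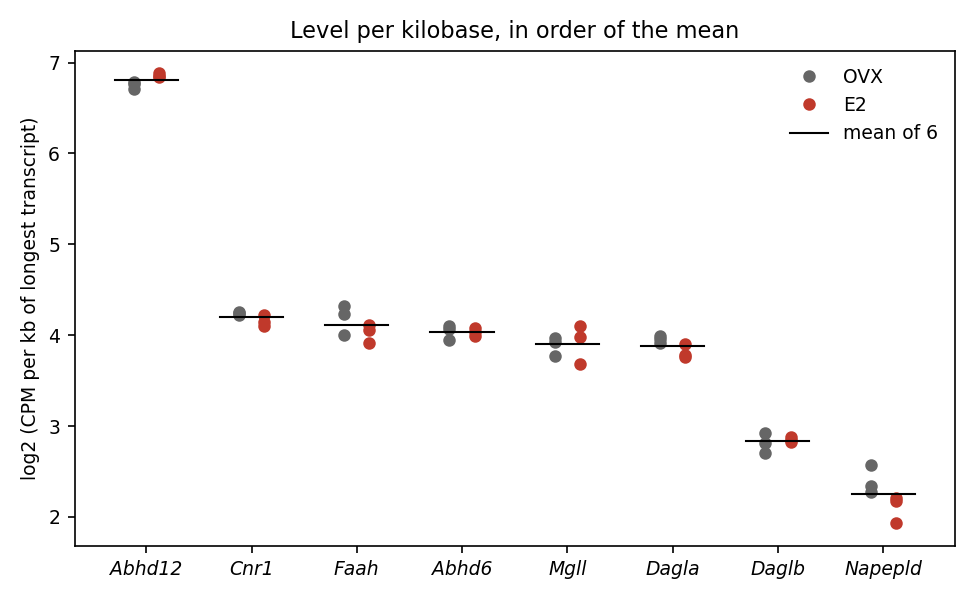
Log2 of CPM per kilobase of the longest transcript for the 8 genes, with 1 point a library (grey, OVX; red, E2) and a line at the mean of 6. *Abhd12* stands alone at the top, 5 genes form a middle group between 3.89 and 4.20, and *Daglb* and *Napepld* are below it.

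Ratios of opposing or alternative enzymes within a library do not depend on how the library was scaled. The log2 ratio of *Dagla* to *Daglb* in CPM was 1.31, 1.28 and 1.46 in OVX and 1.11, 1.14 and 1.27 in E2, a difference of -0.18. The groups did not overlap, and the exact permutation p of 0.1 (2-sided) was the smallest that 3 against 3 libraries can give. The ratio of *Dagla* to *Mgll*, synthesis against the main hydrolase, was on average 0.57 (SD 0.13, n = 3) across the OVX libraries against 0.39 (SD 0.16, n = 3) with E2, with overlapping libraries (exact permutation p = 0.3). The ratio of *Abhd6* to *Abhd12* was -2.56 ± 0.11 (SD, n = 3) and -2.67 ± 0.06 (SD, n = 3), also overlapping (exact permutation p = 0.2). *Napepld* to *Faah* was -2.28 ± 0.15 (SD, n = 3) in the OVX libraries against -2.41 ± 0.07 (SD, n = 3) in E2 (exact permutation p = 0.3). Adjusted over the 4 ratios, every p was 0.3. Each difference stayed below 0 with any library left out, but its size moved. Without OVX replicate 2 it was -0.0525 for *Abhd6* to *Abhd12* (against -0.11) and -0.0688 for *Napepld* to *Faah* (against -0.13), and the latter was -0.213 without OVX replicate 3. For *Dagla* to *Mgll* (-0.17) it was -0.111 without OVX replicate 3 and -0.267 without E2 replicate 2.

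The 8 genes varied unequally between libraries of a group. *Abhd12* and *Cnr1* were among the steadiest genes in the table. Their SD within groups was 0.03 and 0.04 on the log2 scale, and 2.03% and 4.12% of all genes had a lower one. *Mgll* (0.17), *Napepld* (0.15) and *Faah* (0.14) varied more than the median gene (0.13), and *Dagla*, *Abhd6* and *Daglb* varied less (0.06, 0.07 and 0.08). Rebuilt counts ran from 512 to 682 reads per library for *Napepld*, 1524 to 2226 for *Mgll*, 2783 to 3137 for *Faah* and 6079 to 8013 for *Abhd12*. Counting error alone would give *Mgll* an SD of 0.03 and *Faah* of 0.03, so their spread was 5.15 and 5.14 times larger, whereas that of *Abhd6*, *Cnr1*, *Daglb* and *Abhd12* was 1.56 to 1.97 times the counting error.

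Other genes of the pathway were described from 6 lists with 55 genes, of which 46 were in the table. None of the 46 passed the threshold (limma, 0 of 46, against 0.288% of all genes), and 10 had an unadjusted p under 0.05, against 8.56% of all genes. The table holds only genes above the minimum the authors set, and genes absent from it have no value here.

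Of 7 further receptors and targets, 1 was listed, *Gpr55*, a receptor for lysophosphatidylinositol that also responds to some cannabinoids. Its log2 CPM was low, at 0.69, 0.59 and 1.39 in OVX and 2.03, 1.75 and 1.57 in E2. Every E2 library was higher, and the difference was 0.90 (SE 0.32, limma adjusted p = 0.422). All 7 genes for proteins that bind CB1 or control its trafficking were listed, with a median difference of -0.03. *Gprasp1*, a sorting protein that sends CB1 to degradation, had the highest level of these, 8.13 on the per-kilobase log2 scale. *Sgip1*, which slows CB1 internalization, was at a log2 CPM of 7.34, 7.40 and 7.44 in OVX and 7.22, 7.30 and 7.28 in E2, without overlap, a difference of -0.13 (SE 0.06, limma adjusted p = 0.546).

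All 12 genes upstream of 2-AG synthesis were listed, and 5 had a higher mean in E2, with a median difference of -0.03. *Camk2a*, a kinase that phosphorylates DAGLα, had the highest level of them, 9.21 on the per-kilobase log2 scale, and a log2 difference of -0.18 (SE 0.08, limma adjusted p = 0.535). *Plcb4*, a phospholipase C that Gq activates, had its highest OVX library at a log2 CPM of 5.31 and its highest E2 library at 5.49. The groups did not overlap, and the difference was 0.27 (SE 0.09, limma adjusted p = 0.404).

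Of 11 other N-acylethanolamine enzymes, 9 were listed, 6 had a higher mean in E2 (median difference 0.07) and 0 had an unadjusted p under 0.05. *Gde1*, a phosphodiesterase of an alternative route to anandamide, had the highest level of these, 6.60 on the per-kilobase log2 scale, with a difference of -0.07 (SE 0.06, limma adjusted p = 0.807). Of 6 genes for carriers and oxidation, 5 were listed, with a median difference of -0.11. *Ptgs2* encodes cyclooxygenase-2, which oxidizes 2-AG and anandamide and is also an activity-regulated gene in excitatory neurons. It had values of 3.29, 3.02 and 3.34 in OVX and 2.14, 2.28 and 2.69 in E2, with no overlap. The difference was -0.85 (SE 0.20, limma adjusted p = 0.127), the smallest adjusted p of the 46 genes. *Fabp7* and *Fabp5*, fatty acid binding proteins that carry anandamide inside cells and are enriched in glia, were 0.52 (SE 0.16, limma adjusted p = 0.321) and 0.21 (SE 0.09, limma adjusted p = 0.502) higher in E2. *Fabp3* had the highest level of the list, 6.28 per kilobase on the log2 scale.

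All 12 genes for CB1 effectors were listed, and 4 had a higher mean in E2, with a median difference of -0.01. *Mapk3*, which encodes the kinase ERK1, had the highest level, 7.13 on the per-kilobase log2 scale. *Kcnj9*, a subunit of the potassium channels that Gi/o receptors open, had a difference of -0.16 (SE 0.06, limma adjusted p = 0.429), and *Adcy1*, an adenylyl cyclase, of -0.24 (SE 0.11, limma adjusted p = 0.563).

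**Figure D4:**
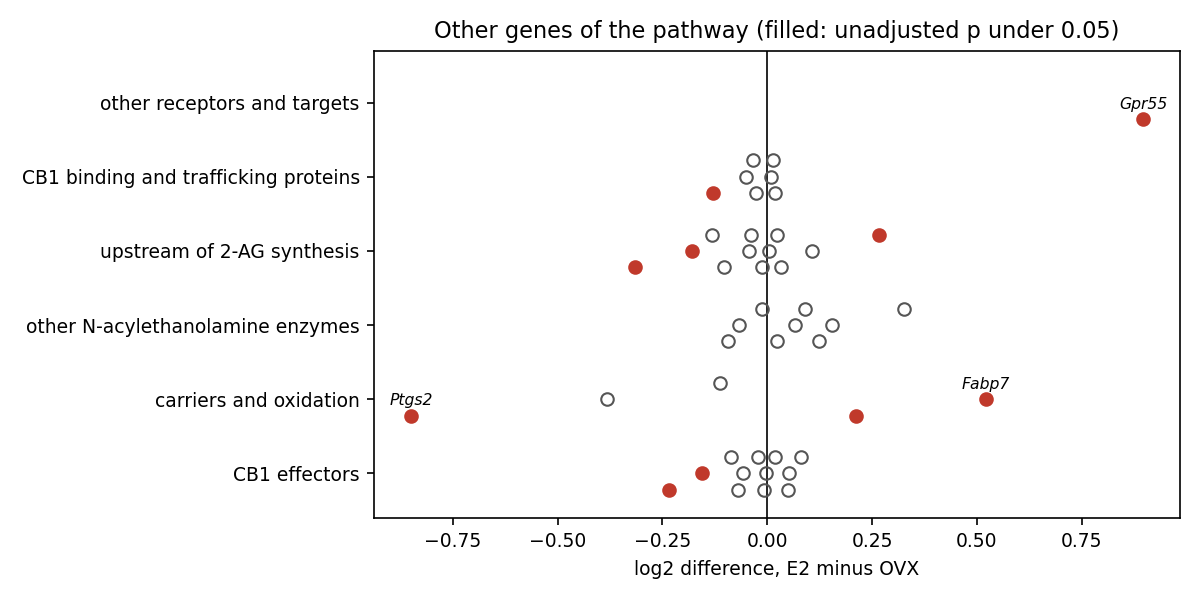
Difference between E2 and OVX on the log2 scale for the 46 listed genes of the 6 pathway lists, 1 point a gene (filled, unadjusted p under 0.05; no gene had an adjusted p under 0.05). The labelled points are *Ptgs2* at -0.85, *Fabp7* at 0.52 and *Gpr55* at 0.90, and the median of the 46 genes is -0.01.

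By the profile of log2 CPM over the 6 libraries, the 5 genes most like *Cnr1* were *Gpd2*, *Cacnb3*, *Fap*, *Ncln* and *Jun*, with Pearson r from 0.985 to 0.990. They are the highest over all genes of the table, rest on 6 points that share library and treatment, and are given as a description. The 5 genes had E2 means below OVX, from -0.09 on the log2 scale for *Ncln* to -1.43 for *Fap*, and none passed the threshold (limma adjusted p from 0.388 to 0.790). *Fap* was very low, at a mean log2 CPM of -0.29, and its difference had an SE of 0.57.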

How the data were processed

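The values are log2 CPM that the authors deposited for 6 libraries. Per the study's methods and processing notes, the authors trimmed reads (Trimmomatic 0.38), aligned them (STAR 2.6.0a), quantified them with RSEM on GRCm38, kept protein-coding genes above a minimum CPM, and applied TMM and voom. A second deposited table, with the authors' own log2 fold changes and p-values, was not used.

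The main test was limma 3.58.1 in R 4.3.3 on all 13886 genes, with treatment as the only term, a mean-variance trend (prior degrees of freedom 9.54), 2-sided p-values adjusted by Benjamini and Hochberg's method across the table and a threshold of 0.05. It was tested on simulated data. Library sizes and counts were rebuilt by reading the lowest value of a library as no read, with voom's offset of 0.5, and they cover counting error only. P-values rest on the spread between pools. In limma the spread of a gene is combined with that of genes of similar level. For steady genes such as *Abhd12* and *Cnr1* this makes the SE larger than their own libraries would give. Positions and lengths are from GENCODE mouse release 21 (GRCm38; the authors used another annotation release of this assembly), which held 13881 of the genes.

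The 8 genes, the 6 pathway lists and the marker lists were chosen with earlier results of these data known. Named from each list were genes with an unadjusted p under 0.05 (at most 5) and the highest level per kilobase, besides *Kiss1* and markers used to describe the libraries, and the 5 genes most like *Cnr1*. Some genes of the lists are not reported here by name. *Rac1* was added after its values were seen. Alternatives were other priors, weights, scalings, filters, pseudocounts, a replicate block and each library left out, and a marker covariate chosen after seeing the data.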

Additional observations from a re-analysis of the deposited data

How the results depend on the processing

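In each of the 17 alternative fits, 0 of the 8 genes passed the threshold, and the lowest adjusted p of any of them was 0.276 (limma, *Faah*). *Cnr1*, *Dagla*, *Faah* and *Napepld* were lower and *Abhd12* was higher in E2 in all 17. *Abhd6* turned to 0.0335 with the marker covariate. With each library left out, the log2 difference ran from -0.0503 to 0.0293 for *Abhd6*, from -0.0126 to 0.10 for *Daglb* and from -0.0562 to 0.16 for *Mgll*, so these 3 have no stable direction. For *Faah* it ran from -0.251 to -0.0911. *Abhd6* turned higher without OVX replicate 1 (0.01), OVX replicate 2 (0.0293) or E2 replicate 2 (0.02). *Daglb* and *Mgll* turned lower without OVX replicate 3 (-0.0126 and -0.02) and *Mgll* also without E2 replicate 3 (-0.0562). The count over all genes was 0 without the trend (1017 at an unadjusted p under 0.05), 3 with the marker covariate (549), and 20 to 66 with each library left out: 21 without OVX replicate 1, 26 without E2 replicate 1, 20 without E2 replicate 2 and 66 without E2 replicate 3. The cause was not tested. With the replicate number as a block it was 35. Deviations of libraries with the same number correlated at -0.112, -0.156 and -0.0977 across genes, which gave no sign of pairing by number. These values cannot show that such pools were handled apart. The block changed no call among the 8. Of the 8 places in the order of levels, 2 were kept by total exon length and 6 without length correction, and 6 to 8 with each library left out, where *Mgll* and *Dagla* exchanged places without E2 replicate 1 or E2 replicate 3. With 3 libraries a group, the median SE of the 8 differences was 0.08, and the spread between pools was 1.56 to 5.15 times the counting error of the 8 genes.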
